A study of Mus musculus with 6 samples.

Results

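Heat shock chaperones hold newly made or damaged proteins in a foldable state. They work as a relay, in which small heat shock proteins hold unfolded chains, J-domain proteins deliver them to HSP70, exchange factors release them, and HSP90 completes the folding of many kinases and receptors. Heat shock factor 1 (HSF1) binds repeats of the unit GAA in their promoters when unfolded protein accumulates, and in mouse liver several of these transcripts also follow the daily rhythm of body temperature. The 10 genes described here are Hspa1a, Hspa1b, Hspa8, Hsph1, Hsp90aa1, Hsp90ab1, Bag3, Dnajb1, Hspb1 and Hspd1. They were taken by gene symbol from a table of 23415 genes, and all 10 were found there and tested by the authors. Of these, 9 act in the cytosol and nucleus, whereas Hspd1 encodes HSP60, a chaperonin of the mitochondrial matrix.

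The samples are livers of 3 mice without alkaline sphingomyelinase (Enpp7, an intestinal enzyme that splits sphingomyelin), labelled K with numbers 82, 84 and 85. They are set against livers of 3 wildtype mice labelled W with numbers 81, 83 and 90. All are of strain C57BL/6, and the labels used here give neither the Enpp7 allele nor age, sex, diet or hour of sampling. The letters K and W were read as knockout and wildtype, and the numbers as those of animals. The tissue label is liver, while the series' design text speaks of intestine.

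Each group has a single deposited value per gene, taken as FPKM (fragments scaled for transcript length and sequencing depth) from the layout of the table, which names no unit. No value per mouse was used, so the spread between mice cannot be shown, and the read depth is unknown. Log2 ratios are knockout over wildtype, and the error given with them is the standard error (SE) implied by the authors' test statistic. A gene is said to have fallen or risen when its q-value (p-value adjusted over all 11515 tested genes) in the authors' deposited table is under 0.05. In these bulk samples, fewer cells of a type and less RNA per cell cannot be told apart.

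Enpp7 itself was at 0.141 FPKM in knockout livers and 0.0541 FPKM in wildtype livers and was not tested, so that it does not check the labels. Of the hepatocyte markers that were given a value, Apoa1, a protein of high-density lipoprotein, was the highest, at 16007 FPKM in knockout livers and 11662 FPKM in wildtype livers. Albumin (Alb) is listed at 0 in both groups with the status HIDATA, Cuffdiff's word for too many fragments to quantify. Of 12 intestinal epithelium markers, the median was 0.485 FPKM in knockout livers and 0.311 FPKM in wildtype livers, and none of the 6 tested passed. The highest in the knockout group was Tff3, a trefoil peptide of mucus-secreting cells, at 48.8 FPKM in knockout livers and 23.9 FPKM in wildtype livers (log2 ratio 1.03 ± 0.31, with q = 0.0775 in the authors' deposited table). The highest in the wildtype group was Fabp2, which binds fatty acids in enterocytes, at 42.9 FPKM in knockout livers and 54.7 FPKM in wildtype livers.

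Promoters are shown because most of the members are known targets of HSF1, and only those of the 6 members with an exact heat shock element are given. Dnajb1 and another annotated start of Hspd1 hold no such element and are not shown. The sequences are from RefSeq (GRCm38.p6, the assembly that mm10 names), run 5′ to 3′ on the strand of the gene and reach from 150 bases before the annotated start to 30 bases after it. Capitals mark exact heat shock elements of at least 2 units, spelled GAANNTTC or TTCNNGAA.
Hsph1 (chr5:149636286-149636465, minus strand): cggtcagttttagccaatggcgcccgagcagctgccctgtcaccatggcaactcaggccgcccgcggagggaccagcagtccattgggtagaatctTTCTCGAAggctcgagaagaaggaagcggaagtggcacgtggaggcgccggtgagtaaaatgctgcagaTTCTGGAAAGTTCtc
Bag3 (chr7:128523433-128523612, plus strand): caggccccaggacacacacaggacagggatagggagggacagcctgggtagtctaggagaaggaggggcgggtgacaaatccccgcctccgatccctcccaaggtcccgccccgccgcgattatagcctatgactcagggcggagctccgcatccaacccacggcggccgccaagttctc
Bag3 element after the start (chr7:128523603-128523632, plus strand): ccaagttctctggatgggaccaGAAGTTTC
Hspa1b (chr17:34959209-34959388, minus strand): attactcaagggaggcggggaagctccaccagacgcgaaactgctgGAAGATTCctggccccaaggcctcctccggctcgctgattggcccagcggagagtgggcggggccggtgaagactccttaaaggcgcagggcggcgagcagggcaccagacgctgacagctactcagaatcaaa
Hspa1a (chr17:34972127-34972306, minus strand): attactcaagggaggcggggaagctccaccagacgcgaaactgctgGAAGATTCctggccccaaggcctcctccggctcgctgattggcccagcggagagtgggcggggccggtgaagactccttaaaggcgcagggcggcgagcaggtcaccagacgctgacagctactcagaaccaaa
Hspb1 (chr5:135887769-135887948, plus strand): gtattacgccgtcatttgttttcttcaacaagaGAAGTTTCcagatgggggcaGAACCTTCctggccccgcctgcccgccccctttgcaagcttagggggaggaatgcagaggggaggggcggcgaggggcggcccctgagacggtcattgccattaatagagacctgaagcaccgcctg
Hspd1 (chr1:55087903-55088082, minus strand): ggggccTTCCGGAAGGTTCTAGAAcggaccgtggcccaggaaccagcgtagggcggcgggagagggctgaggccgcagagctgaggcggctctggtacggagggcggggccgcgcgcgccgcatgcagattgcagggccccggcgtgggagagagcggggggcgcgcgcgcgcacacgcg

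Hsph1 and Bag3 are the members that fell, Hspa1b and Hspa1a are near-identical copies, and Hspb1 and Hspd1 carry the element at other distances. Positions are counted from the start, with 1 as the first transcribed base and -1 as the base before it. In Hsph1 an element of 2 units lies at positions -54 to -47 and one of 3 units (TTCNNGAANNTTC) at positions 16 to 28. In Hspd1, overlapping elements of 3 units, which also include the form GAANNTTCNNGAA, span positions -144 to -127. The shown Hspa1a and Hspa1b promoters have the same element at positions -104 to -97 and differ at 2 bases of 180. In Hspb1 the elements lie at positions -117 to -110 and -97 to -90, and in Bag3 at positions 43 to 50, beyond the promoter stretch shown.

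RefSeq promoters of 300 bases (250 before to 50 after the start) were found for 7 of the 10 members, in 10 windows, since some genes have more than 1 start. Hspa8, Hsp90aa1 and Hsp90ab1 had none in the table used here. Both 2-unit forms are their own reverse complement, so each search covers both strands, and overlapping matches were kept. An exact 2-unit element was found for 6 of the 7 members and in 7 of their 10 windows, against 15.1% of all 32851 promoter windows. An exact element of 3 units was found for 2 of the 7 members and in 3 of the 10 windows, against 0.603% of all windows. With at most 1 mismatch in its 9 fixed bases it was found for 5 members and in 6 of the 10 windows, against 7.22% of all. The windows are not independent, since those of Hsph1 overlap and hold the same elements, and Hspa1a and Hspa1b are near-identical copies. In the windows of Dnajb1 and in that of the Hspd1 start not shown, these letters do not occur. These are matches of letters, and no binding was measured. The members were chosen as heat shock genes, so these shares do not bear on the difference between the groups. Whether HSF1 has a part in that difference was not tested.

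**Figure D1:**
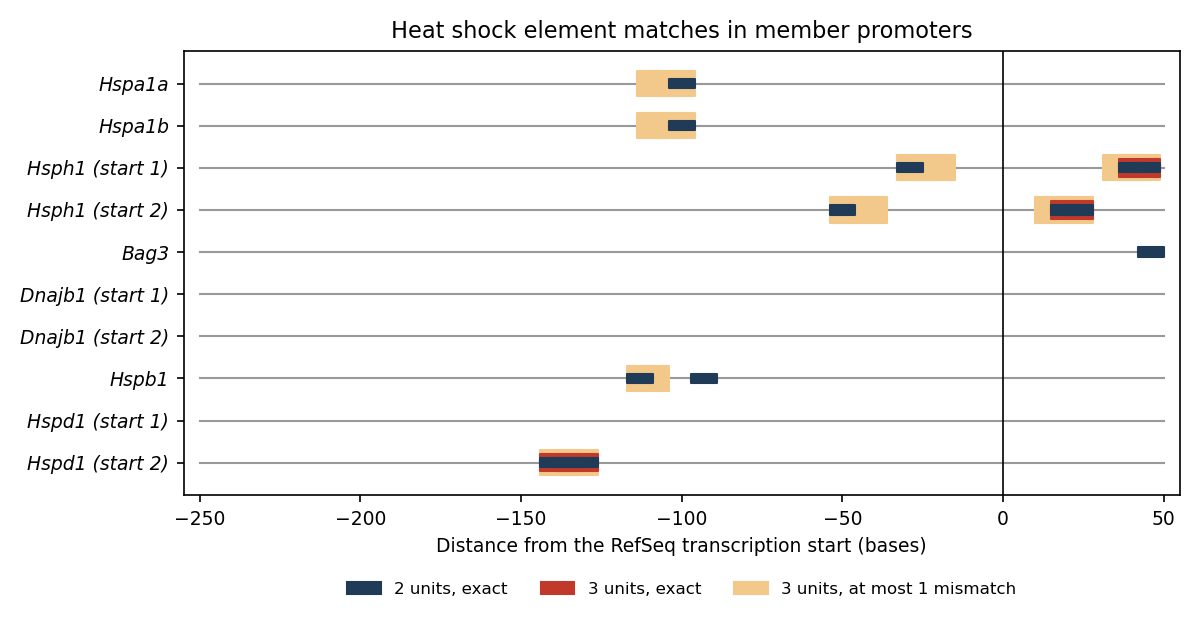
Exact and near matches to the heat shock element in the promoter windows of 7 members, by distance in bases from each RefSeq transcription start (x axis). Hsph1 and Hspd1 (start 2) hold exact elements of 3 units, and Hspa1a and Hspa1b hold the same element at the same distance. Dnajb1 and Hspd1 (start 1) hold none.

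All 10 members had lower values in the knockout group, and 2 of them, Bag3 and Hsph1, fell. Among all tested genes 0.504% passed as lower and 0.573% as higher, and 50.1% had a log2 ratio below 0. The median log2 ratio was -0.47 over the members and -0.0012 over the 11456 tested genes with a finite ratio, of which 4.36% were at or below the members' median. No member passed as higher. At an unadjusted p under 0.05 in the authors' deposited table there were 3 members, all lower, against 2.47% of tested genes. The members' ratios ranged from -0.90 for Hspa1a to -0.25 for Hsp90ab1, and 8 of the 10 did not pass.

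**Figure D2:**
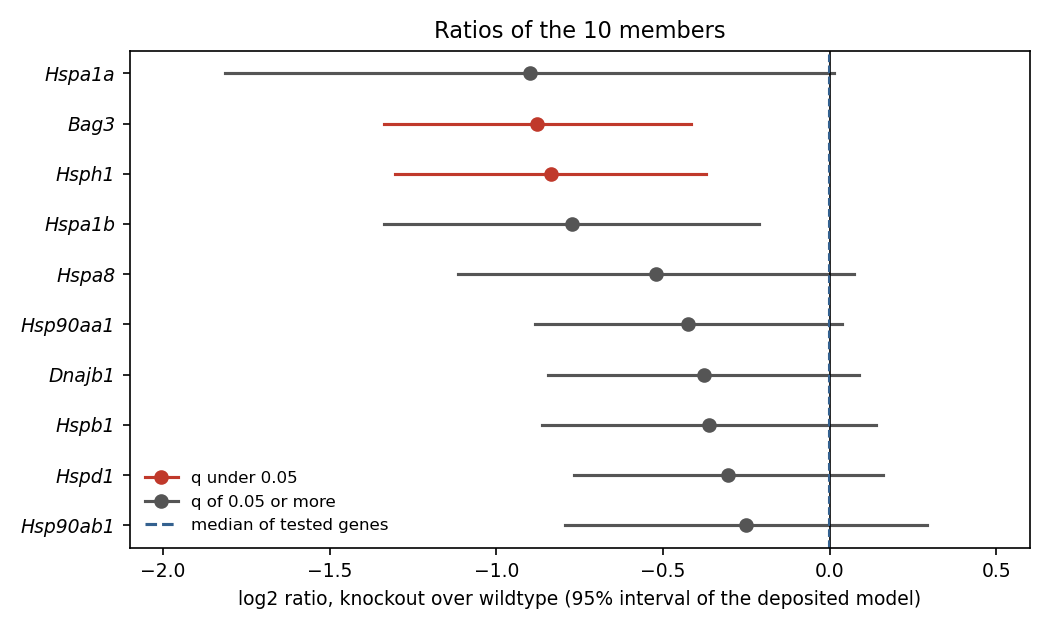
Log2 ratio of each member, knockout over wildtype (x axis), with the 95% interval of the authors' model, in order of the ratio. Every point lies left of 0, and the intervals of Bag3, Hsph1 and Hspa1b end below 0.

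Bag3 is an exchange factor that releases clients from HSP70 and links it to autophagy. It lies on chromosome 7 at 128523583 to 128546979 (mm10) and had 14.5 FPKM in knockout livers against 26.7 FPKM in wildtype livers. The log2 ratio was -0.88 ± 0.24 (SE; q = 0.0221 in the authors' deposited table), so that the knockout level was 54.4% of wildtype, with a 95% interval from 39.6% to 74.9%. Of the 11456 finite ratios, 119 were at or below that of Bag3.

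Hsph1 encodes HSP110, an HSP70 relative that acts as an exchange factor and takes part in dissolving aggregates. It lies on chromosome 5 at 149616845 to 149636315 and had 13.8 FPKM in knockout livers against 24.6 FPKM in wildtype livers. The log2 ratio was -0.84 ± 0.24 (q = 0.0428 in the authors' deposited table), or 56.0% of wildtype with a 95% interval from 40.5% to 77.3%. Both genes that fell encode factors that act on HSP70, while of 8 other HSP70 exchange and client-release factors 0 passed. Neither is among the 95 genes of the authors' short list of differential genes, in which the smallest absolute log2 ratio is 1.01. That list leaves out 29 genes with q under 0.05, whose largest absolute log2 ratio is 0.99.

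Hspa1a and Hspa1b encode the stress-inducible HSP70. They lie 10120 bases apart on chromosome 17, Hspa1b at 34956429 to 34959238 and Hspa1a at 34969359 to 34972156, each as a single exon. Hspa1b was at 6.15 FPKM in knockout livers and 10.5 FPKM in wildtype livers, a log2 ratio of -0.77 ± 0.29 (p = 0.00688 and q = 0.301 in the authors' deposited table). It did not pass as deposited, and it passed once the groups were brought to an equal sum of FPKM (recomputed q = 0.0446). That scaling lowers every ratio and moved the median ratio of all tested genes to -0.20. Hspa1b did not pass with equal upper quartiles (recomputed q = 0.320) or with quantile normalization (recomputed q = 0.331). Nor did it pass among tested genes with a mean of at least 1 FPKM (recomputed q = 0.286). Hspa1a was at 0.719 FPKM in knockout livers and 1.34 FPKM in wildtype livers, a log2 ratio of -0.90 ± 0.47 (q = 0.975 in the authors' deposited table). Hspa1a thus had the lowest ratio of the members and the widest error.

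The split between these copies is uncertain. Of 2754 distinct windows of 50 nt, the read length, in the Hspa1b transcript, 1716 or 62.3% also occur in Hspa1a (GENCODE M21 transcripts, either strand), and the authors' treatment of reads that map to several places is unknown here. Hspa1a made up 10.5% of the pair's FPKM in knockout livers and 11.3% in wildtype livers. Summed, the pair stood at 6.87 FPKM in knockout livers and 11.9 FPKM in wildtype livers, a log2 ratio of -0.79. The gene Gm20481 is annotated across Hspa1a on the opposite strand, and whether strand was kept is not stated in the labels, so that reads of both cannot be told apart.

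Hspa8, the constitutive HSP70 known as HSC70, was by far the most abundant member. It lies on chromosome 9 at 40801273 to 40805199 and stood at 551 FPKM in knockout livers and 791 FPKM in wildtype livers, which was 47.1% of the members' summed FPKM in knockout livers and 50.4% in wildtype livers. Its log2 ratio of -0.52 ± 0.30 did not pass (q = 1.00 in the authors' deposited table), with a 95% interval from 46.2% to 105% of wildtype. The constitutive and the inducible HSP70 did not differ in ratio beyond their error. The ratio of Hspa1b was lower than that of Hspa8 by a log2 difference of -0.25, with a 95% interval from -1.07 to 0.56.

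Hsp90aa1 and Hsp90ab1 encode the inducible and the constitutive cytosolic HSP90. Hsp90aa1, on chromosome 12 at 110691036 to 110696395, was at 54.4 FPKM in knockout livers and 73.0 FPKM in wildtype livers, a log2 ratio of -0.42 ± 0.24 (p = 0.0714 in the authors' deposited table). Hsp90ab1, on chromosome 17 at 45567778 to 45573261, was at 337 FPKM in knockout livers and 402 FPKM in wildtype livers, a log2 ratio of -0.25 ± 0.28 (p = 0.364 in the authors' deposited table). Neither passed. The inducible form had the lower ratio, by a log2 difference of -0.17 with a 95% interval from -0.88 to 0.54. The constitutive form was 6.20 times as abundant as the inducible form in the knockout group and 5.50 times in the wildtype group.

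The remaining 3 members had ratios whose 95% intervals include 0. Dnajb1, the J-domain protein HSP40 that hands clients to HSP70, lies on chromosome 8 at 83608175 to 83611903 and was at 17.3 FPKM in knockout livers and 22.5 FPKM in wildtype livers (log2 ratio -0.38 ± 0.24). Hspb1, the small heat shock protein HSP25, lies on chromosome 5 at 135887919 to 135889563 and was at 29.6 FPKM in knockout livers and 38.0 FPKM in wildtype livers (log2 ratio -0.36 ± 0.26). Hspd1, on chromosome 1 at 55077834 to 55087932, was at 144 FPKM in knockout livers and 178 FPKM in wildtype livers (log2 ratio -0.30 ± 0.24). The upper ends of their 95% intervals were 106%, 110% and 112% of wildtype. A level equal to wildtype lies inside each of these intervals.

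**Figure D3:**
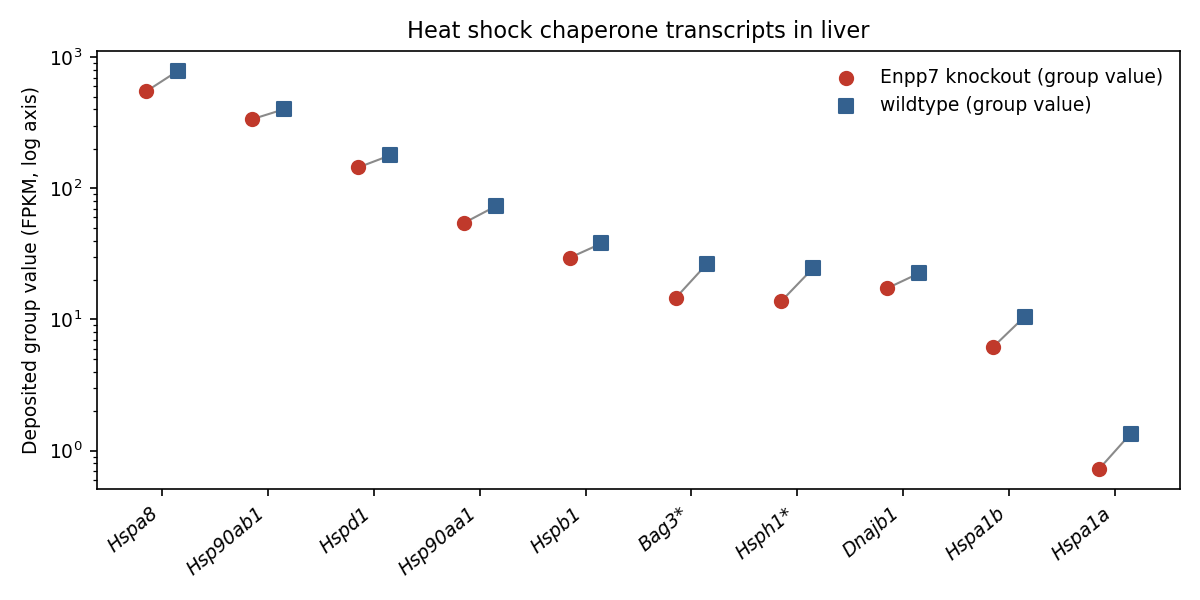
Deposited FPKM of each member in the knockout group (circles) and the wildtype group (squares) on a log axis, in order of the wildtype level. Asterisks mark Bag3 and Hsph1, which passed q under 0.05, and every circle stands below its square.

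The order of the levels was nearly the same in both groups. Hspa8, Hsp90ab1, Hspd1, Hsp90aa1 and Hspb1 took ranks 1 to 5 in each, and Hspa1b and Hspa1a ranks 9 and 10. Dnajb1 was at rank 6 in the knockout group and rank 8 in the wildtype group, where Bag3 and Hsph1 stood above it. Without values per mouse, whether neighbours in this order differ beyond the spread between mice was not tested. Summed over the members, the level was 1169 FPKM in knockout livers and 1567 FPKM in wildtype livers, or 0.181% of all listed FPKM in knockout livers and 0.278% in wildtype livers. The members' sum in knockout livers was 74.6% of that in wildtype livers. The listed sums were 646306 FPKM in knockout livers and 564749 FPKM in wildtype livers. They leave out albumin, which is listed at 0, and the shares depend on these sums as well as on the members. Bringing the groups to an equal sum moved the median ratio of all tested genes to -0.20 and that of the members to -0.67.

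**Figure D4:**
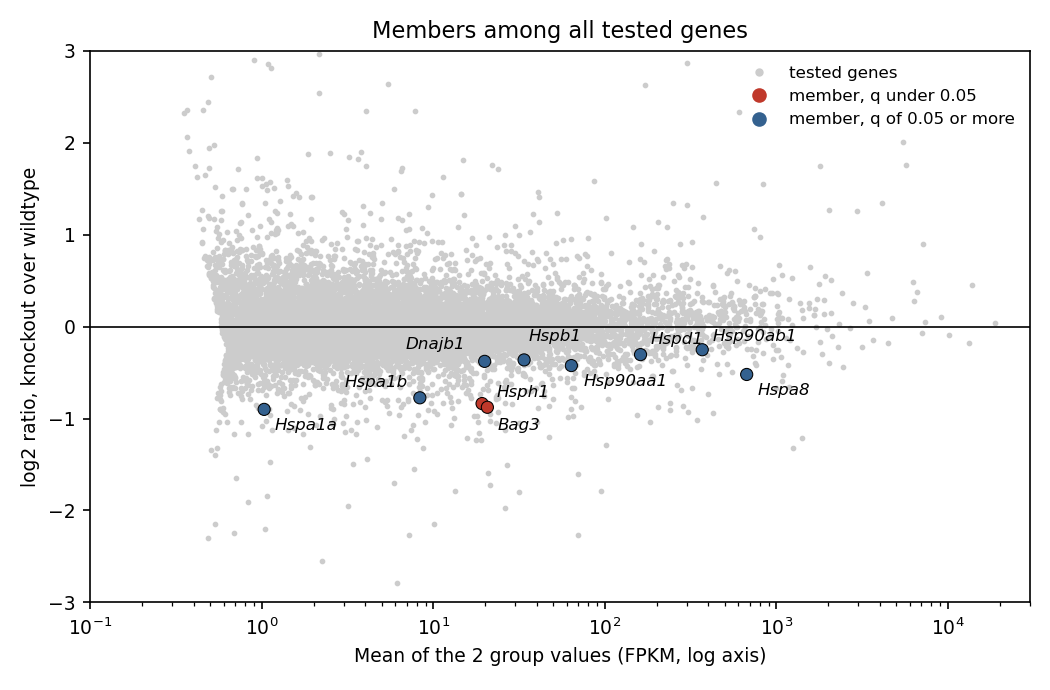
Log2 ratio, knockout over wildtype (y axis), against the mean of both group values in FPKM (log x axis) for all tested genes with a finite ratio (grey) and the 10 members (coloured). The members span a wide range of levels and all lie below 0. Of the tested genes, 27 lie outside the axes.

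The members differ in how far their reads can be assigned. No 50-nt window of Bag3 (2513 windows) or Hsph1 (4402 windows) occurs in a transcript of another gene in GENCODE M21. For Dnajb1 the share of such windows was 0.412% and for Hsp90ab1 4.13%. It was 42.1% for Hspd1, 50.1% for Hsp90aa1, 50.1% for Hspb1 and 68.8% for Hspa8, mostly in processed pseudogenes. The genes that fell have no shared window, while Dnajb1 and Hsp90ab1, with few, did not pass. Whether sharing bears on the calls was not tested. The values of Hspa8, Hsp90aa1, Hspb1, Hspd1 and the HSP70 pair are less certain one by one. The genes Hspd1 and Hspe1, its co-chaperonin, overlap on opposite strands in GENCODE, whereas their deposited positions lie 215 bases apart.

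The other genes of the folding machinery were counted in 10 lists with 104 tested genes. Of these 2 fell, 1 rose and 101 did not pass, and the median log2 ratio was -0.08. Ratios were below 0 for 66 of them, or 63.5%, and 10 of the 104 were at or below the members' median of -0.47. The lists were chosen with earlier results of these data known.

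The regulators of the response stood close to equal in both groups. Of 4 genes tested, which are Hsf1, Hsf2, Hsf4 and Hsbp1, a binding protein of these factors, 0 passed and 0 had an unadjusted p under 0.05 in the authors' deposited table. Hsf1 was at 7.52 FPKM in knockout livers and 7.81 FPKM in wildtype livers (log2 ratio -0.06 ± 0.26). Hsf2 was at 5.38 FPKM in knockout livers and 5.62 FPKM in wildtype livers (-0.06 ± 0.28). The transcript level of a factor does not measure its activity, which is set by trimer formation and modification of the protein.

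Among the other HSP70 and HSP110 genes, 1 of 5 tested fell. This was Hspa2, an HSP70 best known from testis, at 1.10 FPKM in knockout livers and 2.72 FPKM in wildtype livers (log2 ratio -1.31 ± 0.37, with q = 0.0429 in the authors' deposited table). Hspa4, a close relative of Hsph1, was at 25.7 FPKM in knockout livers and 28.0 FPKM in wildtype livers (-0.12 ± 0.22). The ratio of Hsph1 was lower than that of Hspa4 by a log2 difference of -0.71, with a 95% interval from -1.35 to -0.08. In the same way the ratio of Bag3 was lower than that of Bag1, another exchange factor, by -0.78 (95% interval -1.41 to -0.15). Bag3 was compared with Bag1 alone, and the Bag genes other than Bag3 ranged from -0.51 ± 0.42 for Bag2 to 0.16 ± 0.26 for Bag5. These intervals take the errors of both genes as independent and were not adjusted over the 7 pairs compared, which were chosen after the values were seen. The intervals of all other pairs included 0, and the ratio of Dnajb1 was above that of Dnajb4 by 0.14 (95% interval -0.51 to 0.80).

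The lists of other cytosolic J-domain proteins and exchange factors held no call, while Dnajc12, a J-domain gene outside them, rose (log2 ratio 1.22 ± 0.27, with q = 0.00124 in the authors' deposited table). Of 13 listed other cytosolic J-domain genes 0 passed and 10 had ratios below 0, with a median of -0.22. Dnajb4, an HSP40 close to Dnajb1, had the smallest p and was at 10.8 FPKM in knockout livers and 15.5 FPKM in wildtype livers (log2 ratio -0.52 ± 0.24, with p = 0.0270 in the authors' deposited table). It was the only gene of the list at an unadjusted p under 0.05. Of 8 other exchange and client-release factors 0 passed and 0 had an unadjusted p under 0.05, with Bag2 at 1.33 FPKM in knockout livers and 1.90 FPKM in wildtype livers.

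Of 20 HSP90 co-chaperones 0 passed, 12 had ratios below 0, and the median was -0.07. The 2 at an unadjusted p under 0.05 were both lower. Chordc1, an HSP90 partner, was at 11.1 FPKM in knockout livers and 16.7 FPKM in wildtype livers (log2 ratio -0.59 ± 0.24, with q = 0.537 in the authors' deposited table). Fkbp5, named after its values were seen, is an HSP90 partner and a well-known glucocorticoid target and was at 10.3 FPKM in knockout livers and 14.1 FPKM in wildtype livers (-0.45 ± 0.23).

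Small heat shock proteins, the cytosolic chaperonin and mitochondrial partners also held no call. Of 4 other small heat shock genes tested 0 passed, with Hspb8, which forms a complex with Bag3, at 77.9 FPKM in knockout livers and 92.4 FPKM in wildtype livers. Of 14 genes of the chaperonin CCT and of prefoldin, 7 had ratios below 0 and 7 above, the median was -0.01, and Vbp1, a prefoldin subunit, was at 3.92 FPKM in knockout livers and 5.50 FPKM in wildtype livers. Of 10 mitochondrial genes 5 had ratios below 0, and Hspa9, the mitochondrial HSP70, was at 147 FPKM in knockout livers and 186 FPKM in wildtype livers. Hspe1, the partner of Hspd1, was at 187 FPKM in knockout livers and 218 FPKM in wildtype livers. None of the genes in these 3 lists had an unadjusted p under 0.05 in the authors' deposited table.

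Chaperones of the endoplasmic reticulum moved both ways. Of 18 tested genes 1 fell and 1 rose, 16 did not pass, and the median log2 ratio was -0.03. At an unadjusted p under 0.05 in the authors' deposited table there were 6 of the 18, of which 4 were lower, the most of the 10 chaperone lists. Creld2, a secretory folding factor, fell to 26.5 FPKM in knockout livers, against 54.2 FPKM in wildtype livers (q = 0.00264 in the authors' deposited table). Derl3, which serves the removal of misfolded proteins, rose to 5.64 FPKM in knockout livers, against 1.59 FPKM in wildtype livers (q = 0.00217 in the authors' deposited table). Herpud1, a factor of the same removal pathway named after its values were seen, came close to the threshold at 202 FPKM in knockout livers and 369 FPKM in wildtype livers (log2 ratio -0.87 ± 0.25, with q = 0.0569 in the authors' deposited table). Of 8 genes that handle aggregates and their removal 0 passed and 0 had an unadjusted p under 0.05 in the authors' deposited table.

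**Figure D5:**
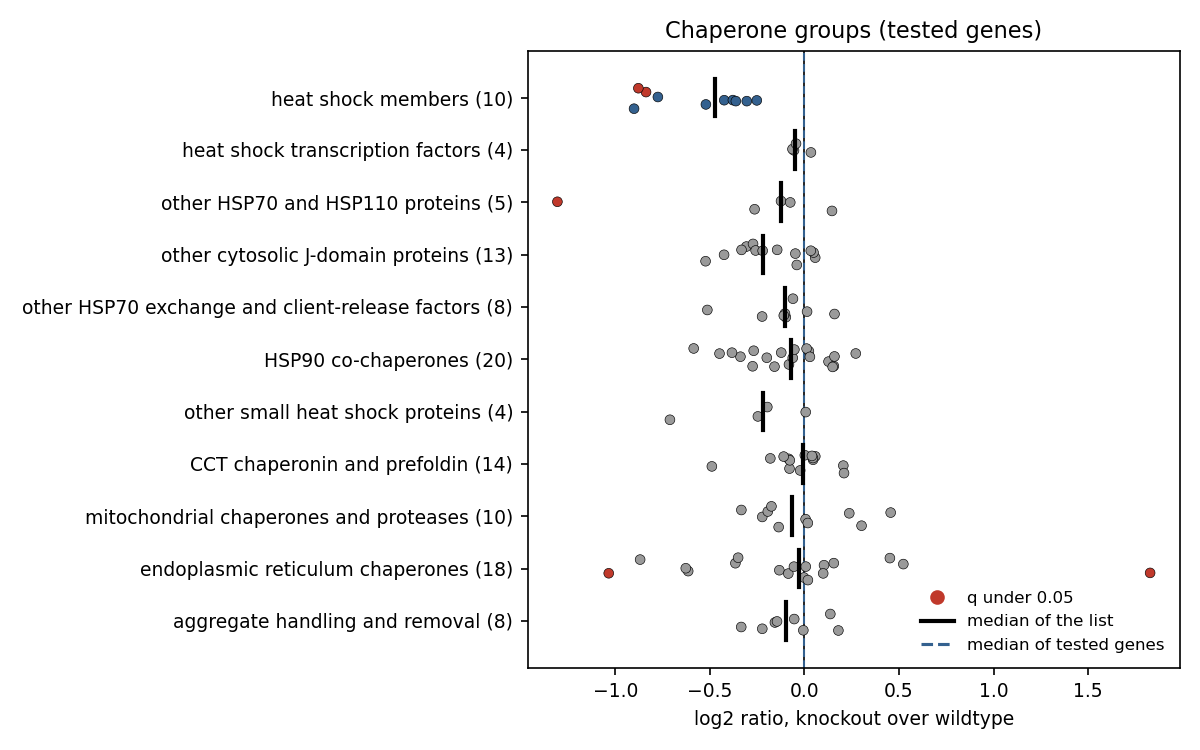
Log2 ratio, knockout over wildtype (x axis), of each tested gene of the members and of 10 chaperone lists (rows, number of genes in brackets), with the median of each list as a bar. The median of the members is -0.47, and those of the other lists lie between -0.22 and -0.01.

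Other transcript groups moved in the same livers, and their part in the members' values was not tested. Of 16 tested core clock and clock output genes 2 fell and 1 rose, with a median log2 ratio of -0.41, and 8 had an unadjusted p under 0.05 in the authors' deposited table (7 lower, 1 higher). Per2, a clock repressor known to respond to heat shock factor in mouse, fell to 4.79 FPKM in knockout livers, against 8.57 FPKM in wildtype livers (q = 0.0314 in the authors' deposited table). Ciart, listed under its older name Gm129, is a clock repressor and fell to 8.12 FPKM in knockout livers, against 17.1 FPKM in wildtype livers. Nr1d1, the clock repressor REV-ERB alpha, rose to 41.0 FPKM in knockout livers, against 19.2 FPKM in wildtype livers. Of 2 cold-inducible RNA-binding genes 0 passed and both had ratios above 0. Rbm3, an RNA-binding protein that rises at lower temperature, was at 34.7 FPKM in knockout livers and 33.5 FPKM in wildtype livers (log2 ratio 0.05 ± 0.26). Cirbp, the other, was at 16.5 FPKM in knockout livers and 10.2 FPKM in wildtype livers, with a very wide error (log2 ratio 0.69 ± 5.83).

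Of 15 tested immediate early genes 3 rose and 1 fell, and 6 had an unadjusted p under 0.05 in the authors' deposited table (1 lower, 5 higher). Egr1, a zinc finger factor, rose to 14.5 FPKM in knockout livers, against 1.71 FPKM in wildtype livers, and Junb, an AP-1 subunit, rose to 36.3 FPKM in knockout livers, against 11.1 FPKM in wildtype livers. Myc, a growth factor-induced transcription factor, rose to 9.86 FPKM in knockout livers, against 3.04 FPKM in wildtype livers. Dusp1, a MAP kinase phosphatase that stress also induces, fell to 20.5 FPKM in knockout livers, against 42.4 FPKM in wildtype livers.

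Markers of other cell types differed as well. Of 10 neutrophil and monocyte markers found, 7 were tested and 4 rose, 6 had an unadjusted p under 0.05 in the authors' deposited table, all higher, none of the 10 was at 0 in either group, and their summed level was 108 FPKM in knockout livers and 7.85 FPKM in wildtype livers. Of 11 Kupffer cell and macrophage markers 2 rose, 8 had an unadjusted p under 0.05 in the authors' deposited table, all higher, none was at 0, and their sum was 526 FPKM in knockout livers and 333 FPKM in wildtype livers. Of 5 tested cholangiocyte markers 1 rose, and the list summed to 150 FPKM in knockout livers and 70.1 FPKM in wildtype livers, of which Spp1 alone made up 142 FPKM in knockout livers and 62.6 FPKM in wildtype livers. Krt19, a keratin of bile duct cells, was at 3.26 FPKM in knockout livers and 3.04 FPKM in wildtype livers. Of 10 tested hepatocyte markers 0 passed and 2 had an unadjusted p under 0.05 in the authors' deposited table, with a median log2 ratio of -0.08. Of 8 sinusoidal endothelium and 8 stellate cell markers 0 passed, and 1 and 2 of them had an unadjusted p under 0.05, all lower. The endothelial list summed to 105 FPKM in knockout livers and 111 FPKM in wildtype livers, and the stellate list to 61.0 FPKM in knockout livers and 69.8 FPKM in wildtype livers. The highest neutrophil marker was S100a9, at 46.0 FPKM in knockout livers and 2.86 FPKM in wildtype livers. The highest macrophage marker in the knockout group was C1qc, at 99.8 FPKM in knockout livers and 58.5 FPKM in wildtype livers, and in the wildtype group Cd5l, at 96.6 FPKM in knockout livers and 61.2 FPKM in wildtype livers. The highest endothelial marker, Clec4g, was at 54.4 FPKM in knockout livers and 50.3 FPKM in wildtype livers, and the highest stellate marker, Dcn, at 35.5 FPKM in knockout livers and 41.8 FPKM in wildtype livers.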

How the data were processed

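RNA was prepared from frozen liver with Trizol and made into libraries with the Illumina TruSeq RNA kit, per the labels' protocols. Per the submitters' processing notes, Bowtie2 and mm10 were used; no source here names the program behind the tables. Deposited were a full gene table and a short list of differential genes, each with 1 value per group. The headers name no unit; because columns and status words match Cuffdiff output, the deposited values were taken as FPKM. Per the file headers the authors' log2 ratio runs wildtype over knockout; its sign was reversed here, and it matched the log2 of both values to within 1.29e-05. The deposited p-value follows a normal z statistic (largest difference 2.63e-06), and the deposited q-value is its Benjamini-Hochberg adjustment over 11515 tested genes. Starts had 1 added.

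Calls are the authors' q-values under 0.05, with no fold minimum. The SE is the log2 ratio divided by z, an error of the authors' model. Its median was 0.279, and the smallest absolute log2 ratio called was 0.78. No spread between mice, depth or counting interval can be given. Beyond the numbers in the titles, no source says that the libraries are separate mice. The adjustment of p-values was tested on simulated test statistics. Of the scalings, only the quantile step was checked, on a small made-up example. Members and the 13 pathway and 7 marker lists were chosen with earlier results of these data known. From each pathway list the called genes, or the gene with the smallest p, are named, and from the marker lists the highest; 1 gene that this rule names is not reported here, and other genes were named after their values were seen. Python 3.11.15, numpy 2.4.6, pandas 2.3.3 and scipy 1.17.1 were used. RefSeq (GRCm38.p6) gave promoters, and GENCODE M21 transcripts gave shared 50-nt windows. Alternatives were 3 scalings, a filter at a mean of 1 FPKM, pseudocounts of 1 and 0.5, q under 0.1 and unadjusted p under 0.05.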

Additional observations from a re-analysis of the deposited data

How the results depend on the processing

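Of the 3 scalings, upper quartile scaling and quantile normalization could in principle have raised a member's ratio above 0. Upper quartile scaling raised every ratio by only 0.011, which is too little to do so for any member. Every member's log2 ratio stayed below 0 under both scalings, the highest being -0.24 and -0.34. Bringing the groups to an equal sum could not raise a ratio above 0, since it lowers every ratio. Nor could the filter at 1 FPKM, which leaves the ratios as they are, or pseudocounts of 1 and 0.5, which keep their sign. Bag3 and Hsph1 passed with equal upper quartiles (recomputed q = 0.0262 and 0.0473) and with quantile normalization (0.0235 and 0.0459), so that Hsph1 lies close to the threshold. They also passed with equal sums (0.000886 and 0.00206) and with the filter (0.0203 and 0.0392). These 2 settings could hardly undo a lower call. Equal sums lower every ratio, and the filter keeps each p and adjusts over fewer genes. Bringing the groups to an equal sum, which lowers every ratio by 0.19, added Hspa1b (q = 0.0446) and brought the lower calls over all genes to 140, against 58 as deposited. The members' median ranged from -0.67 with that scaling to -0.43 with a pseudocount of 1. Over all 13 pathway lists, 5 genes passed as lower and 5 as higher. With equal sums 12 passed as lower, and at an unadjusted p under 0.05 there were 16 lower and 8 higher.

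No paired analysis was possible because the deposited tables hold 1 value per group, and leaving out single mice was not run for the same reason. No count was made with Hspa1a and Hspa1b taken as 1 gene, since their sum has no deposited p. The members' SE ran from 0.24 to 0.47, and the smallest absolute log2 ratio that passed was 0.78.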

Other observations

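Genes of the same families were also taken by symbol, whether or not a list held them. Of 37 tested genes named Dnaja, Dnajb or Dnajc, 1 rose, 0 fell and 22 had ratios below 0. The gene that rose was Dnajc12, a J-domain protein known as a co-chaperone of the aromatic amino acid hydroxylases, and it was named after its values were seen. It was at 21.0 FPKM in knockout livers and 9.03 FPKM in wildtype livers (log2 ratio 1.22 ± 0.27, with q = 0.00124 in the authors' deposited table).

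Of 12 tested HSP70 and HSP110 genes, which include those of mitochondria and endoplasmic reticulum, 11 had ratios below 0 and 2 fell, Hsph1 and Hspa2. Hspa5, the HSP70 of the endoplasmic reticulum, was at 327 FPKM in knockout livers and 421 FPKM in wildtype livers (log2 ratio -0.36 ± 0.28) and did not pass. Of 6 Bag genes Bag3 alone passed, and Bag5 was at 8.20 FPKM in knockout livers and 7.34 FPKM in wildtype livers. Hsp90b1, the HSP90 of the endoplasmic reticulum, was at 282 FPKM in knockout livers and 282 FPKM in wildtype livers (log2 ratio -0.0026).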
